A study of Mus musculus with 2 samples.

Results

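The genes described here are 43 genes of the cell division cycle, taken by symbol from the 32285 genes that both libraries listed. All 43 were found and had unique molecular identifiers (UMIs, counted transcripts) in both libraries. They were divided by role into 3 G1 cyclins, 14 genes of DNA replication, 24 genes of mitosis and 2 genes of broader expression, Hmgb2 and Stmn1. The tissue was mouse periodontal ligament (PDL), the connective tissue that holds the tooth root in its bony socket, measured by droplet single-cell RNA sequencing. Orthodontic tooth movement (OTM) was produced by pulling the first molar forward with a 10-g force for 6 days. The OTM library came from the loaded left upper jaw and the control library from the unloaded right side, both from male C57BL/6J mice aged 8 weeks. Each library was a pool of tissue from 5 mice, scraped from extracted roots and sockets and digested with collagenase and then trypsin. Whether the same mice gave both sides is not given in the sources used here, and an unloaded side of a treated mouse is not an untreated mouse. With 1 library per group there was no test between groups, so every comparison below is between these 2 libraries, and intervals cover counting error only.

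A cell that divides passes through G1, S phase, G2 and mitosis, and its transcripts change along the way. The D and E cyclins act in G1, with their kinases, to release the E2F factors that switch on replication genes. Genes of mitosis are held off in resting cells by the DREAM complex and are switched on later by B-MYB and FOXM1, through CHR and CCAAT elements near their start sites. In the PDL, divisions of fibroblasts and their progenitors renew the ligament and its mineralizing cells, whereas mature neutrophils have left the cycle.

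The promoters of 5 members are shown because their sequence elements differ between the mitosis and the replication genes that the results below keep apart. Top2a (DNA topoisomerase II alpha), Mki67 (the proliferation marker Ki-67) and Kif11 (the spindle motor Eg5) stand for mitosis, and Mcm5 and Mcm6, subunits of the replicative helicase, for replication. Each line is the 160 bases before the RefSeq start site on GRCm38.p6, 5′ to 3′ on the gene's strand: Top2a at chr11:99024190-99024349 (minus strand), Mki67 at chr7:135716380-135716539 (minus), Kif11 at chr19:37376222-37376381 (plus), Mcm5 at chr8:75109349-75109508 (plus) and Mcm6 at chr1:128359706-128359865 (minus). Capitals mark the letters of the searched motifs on either strand.
Top2a: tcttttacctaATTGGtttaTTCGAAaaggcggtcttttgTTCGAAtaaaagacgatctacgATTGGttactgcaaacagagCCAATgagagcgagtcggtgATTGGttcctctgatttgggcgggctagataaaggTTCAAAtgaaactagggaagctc
Mki67: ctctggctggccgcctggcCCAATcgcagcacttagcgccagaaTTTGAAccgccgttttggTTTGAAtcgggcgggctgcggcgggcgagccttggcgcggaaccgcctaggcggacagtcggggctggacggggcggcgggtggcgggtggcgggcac
Kif11: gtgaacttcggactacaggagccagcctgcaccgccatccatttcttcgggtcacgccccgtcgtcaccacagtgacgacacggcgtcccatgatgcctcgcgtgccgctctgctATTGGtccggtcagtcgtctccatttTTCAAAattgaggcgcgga
Mcm5: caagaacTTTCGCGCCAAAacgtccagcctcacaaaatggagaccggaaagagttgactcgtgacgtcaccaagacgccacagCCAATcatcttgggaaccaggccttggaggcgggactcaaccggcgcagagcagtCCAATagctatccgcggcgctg
Mcm6: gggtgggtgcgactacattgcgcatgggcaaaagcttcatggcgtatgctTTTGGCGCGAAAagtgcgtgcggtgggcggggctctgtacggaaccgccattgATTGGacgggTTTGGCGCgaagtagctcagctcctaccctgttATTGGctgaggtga
The motifs were CHR (TTTGAA or TTCGAA), the CCAAT box (CCAAT) and E2F (TTTCCCGC, TTTGGCGC, TTTCGCGC or TTTGCCGC), on both strands, from 250 bases before to 50 bases after the start. The table of RefSeq promoters held 32 of the 43 members. A CHR match was found in 16 of 20 mitosis promoters (80.0%), in 2 of 10 replication promoters (20%) and in 19.4% of all 27025 promoters of that length. All 16 of those mitosis promoters also held a CCAAT box, a pair found in 7.70% of all promoters. E2F letters were found in 4 of 10 replication promoters (40.0%), in 1 of 20 mitosis promoters (5.00%) and in 2.32% of all promoters. The CCAAT box alone did not separate the roles, at 18 of 20 mitosis and 8 of 10 replication promoters against 37.9% of all. These matches describe letters, not bound sites.

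The 348 control barcodes that passed the filters held 5593726 UMIs (median 14877 per barcode), and the 1412 OTM barcodes held 35518568 (median 19583). No barcode sequence was shared by the libraries. Barcodes were clustered without any cell cycle gene, and clusters were named from marker lists, so the classes are written with -like. The class sizes were 153 control and 654 OTM stromal-like, 36 and 87 mononuclear phagocyte-like, 20 and 126 epithelial-like, and 33 and 148 neutrophil-like barcodes. These 4 classes, with at least 20 barcodes in each library, were compared between libraries. Other classes are given as levels. All 32 stromal markers and all 14 neutrophil markers were detected in their class in both libraries.

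In the whole libraries 40 of the 43 genes were higher in the OTM library, 13 of them by at least 2-fold. At that size 5.27% of the 16990 genes with enough UMIs were higher and 11.4% were lower. No member was 2-fold lower. The median log2 ratio of the members was 0.84, against -0.02 over all genes. Levels below are in CPM, the UMIs of a gene in each 1000000 UMIs of the library or class, and a ratio is OTM over control with its exact conditional 95% interval.

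Among the G1 cyclins, Ccnd1 (cyclin D1, which links growth factor signals to the cycle) had 634 control UMIs (113 CPM) and 2351 OTM UMIs (66.2 CPM), a log2 ratio of -0.78 (-0.90 to -0.65). It was the lowest ratio of all members. Ccne1, a cyclin E that drives entry into S phase, stood at 15 and 14.6 CPM (-0.04, -0.38 to 0.31). Ccne2, its paralog, stood at 10.5 and 13.9 CPM (0.40, 0.01 to 0.81). None of the 3 G1 cyclins reached 2-fold, and 2 of them had ratios below 0.

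Together the 14 replication genes came to 362 CPM among control and 703 CPM among OTM barcodes, and 7 of them were at least 2-fold higher. Pcna, the sliding clamp of the replication fork, went from 94.0 to 124 CPM (log2 0.40, 0.27 to 0.54). Rrm1 and Rrm2, the subunits of ribonucleotide reductase that makes deoxynucleotides, went from 33.6 to 53.2 CPM (0.66, 0.45 to 0.89) and from 25 to 42.3 CPM (0.76, 0.51 to 1.02). Tyms, the thymidylate synthase, went from 16.4 to 47.6 CPM (1.53, 1.23 to 1.85).
The helicase subunits Mcm6 and Mcm7 had log2 ratios of 1.11 (0.80 to 1.44) and 0.56 (0.30 to 0.82), and Mcm5 one of 2.01 (1.5 to 2.57) from 32 control UMIs. Hist1h1b, a linker histone made in S phase (ENSMUSG00000058773, chr13:21779883-21780625 on GRCm38), had the highest ratio of all members: 84 UMIs (15 CPM) against 3202 UMIs (90.2 CPM), a log2 ratio of 2.59 (2.27 to 2.92). Hist1h2ap, a core histone H2A of the same cluster, went from 83.3 to 150 CPM (0.85, 0.71 to 0.99). Its copies are nearly identical in sequence, so its own count is uncertain, and S-phase histone transcripts mostly lack the poly(A) tail that this chemistry captures.

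The 24 mitosis genes summed to 562 and 956 CPM. All 24 had ratios above 0, and 6 reached 2-fold. Cdk1, the kinase that starts mitosis, went from 16.8 to 56.3 CPM (94 and 2000 UMIs, log2 1.74, 1.45 to 2.06). Birc5 (survivin, of the chromosomal passenger complex) went from 33.8 to 85.2 CPM (1.33, 1.12 to 1.55), and Cdc20, an activator of the anaphase-promoting complex, from 17.0 to 34.9 CPM (1.04, 0.74 to 1.36). Those 3 passed 2-fold. Ube2c (69.2 and 101 CPM, 0.54, 0.39 to 0.70), Top2a (57.2 and 97.1 CPM, 0.76, 0.60 to 0.93) and Mki67 (50.9 and 67.7 CPM, 0.41, 0.23 to 0.59) did not. Ube2c is the ubiquitin-conjugating enzyme of that complex.
The centromere proteins Cenpa and Cenpf had log2 ratios of 0.73 (0.52 to 0.95) and 0.63 (0.40 to 0.86), the passenger subunit Cdca8 0.87 (0.60 to 1.15) and the mitotic cyclin Ccnb2 0.77 (0.51 to 1.05). The spindle genes Tpx2 and Nusap1 had 0.56 (0.33 to 0.80) and 0.21 (-0.01 to 0.45), and Kif11 had 0.08 (-0.20 to 0.36). Of the broadly expressed genes, Hmgb2, a chromatin protein, was almost level at 519 and 471 CPM (-0.14, -0.20 to -0.08), and Stmn1 (stathmin, a microtubule destabilizer) went from 152 to 272 CPM (0.84, 0.74 to 0.94).

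**Figure D1:**
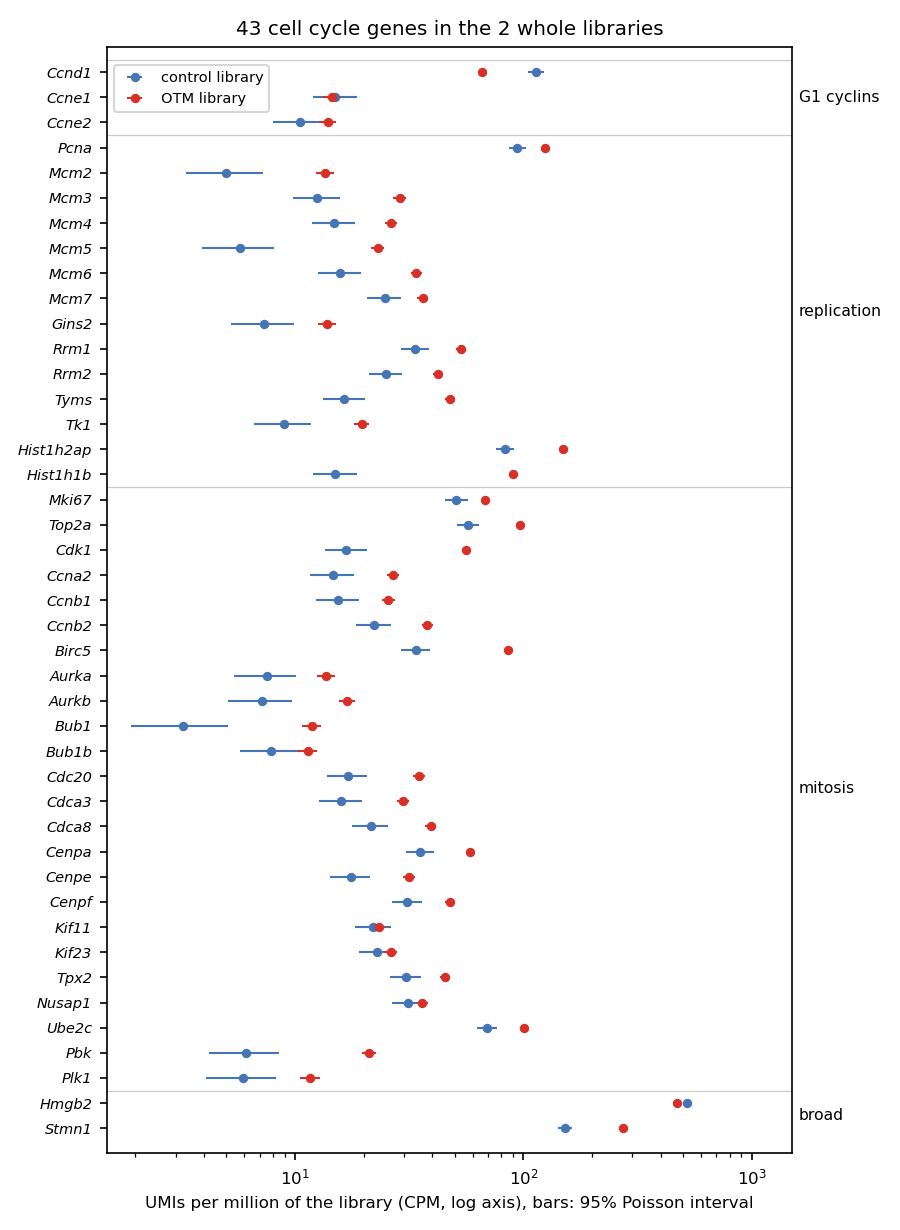
Level of each of the 43 genes in the control (blue) and OTM (red) library, in CPM on a log axis with 95% Poisson intervals, grouped by role. Most red points lie to the right of the blue ones, and Ccnd1 (113 against 66.2 CPM) lies the other way.

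These whole-library sums rested on few control barcodes. In the control library 3 barcodes held 60.2% of the 3146 mitosis UMIs, against 4.89% in the OTM library. The richest was a stromal-like barcode with 77969 UMIs, 914 of them from mitosis genes and all 24 genes present. It held 29.1% of the control library's mitosis UMIs. The next 2 belonged to the erythroid-like cluster, with 610 and 371 mitosis UMIs. Scrublet called none of the 3 a doublet. Without the richest barcode of each library, 28 of the 43 genes were at least 2-fold higher, where 5.57% of all genes were, and the median log2 ratio was 1.19. That barcode was chosen by its mitosis UMIs. Leaving it out took 29.1% of them from the control library but 1.63% from the OTM library, so higher mitosis ratios were built into the choice.

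In stromal-like barcodes, the fibroblasts and mineralizing cells of the ligament, 19 of the 43 genes were at least 2-fold higher in the OTM library and 1 was lower, where 5.53% of all 14535 genes were higher and 8.2% lower. The median log2 ratio was 0.87, against -0.02 over all genes. The lower gene was Ccnd1, with 517 control UMIs (154 CPM) and 1137 OTM UMIs (67.0 CPM), a log2 ratio of -1.20 (-1.35 to -1.04). The histones differed most. Hist1h1b had 8 control and 1078 OTM UMIs (4.74, 3.76 to 5.96), and Hist1h2ap had 19 and 1790 (4.22, 3.58 to 4.96). At least 10 histone UMIs were found in 28 of 654 OTM barcodes of the class and in 0 of 153 control barcodes.
Replication genes were unequal: 8 of 14 passed 2-fold, among them Rrm2 (1.29, 0.80 to 1.82) and Tyms (1.26, 0.85 to 1.70). Pcna was level at 92.7 and 93.1 CPM (0.01, -0.17 to 0.19), as was Mcm7 at 29.4 and 29.9 CPM (0.03, -0.29 to 0.35). Of the mitosis genes 11 of 24 passed 2-fold. Cdk1 had 24 and 633 UMIs (2.39, 1.80 to 3.04), Birc5 76 and 1057 (1.46, 1.13 to 1.82), Top2a 144 and 1391 (0.94, 0.69 to 1.20) and Mki67 61 and 546 (0.83, 0.44 to 1.23).

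The single richest control barcode decided most of these stromal ratios. It held 76.0% of the mitosis UMIs of the class, and the next control barcode held 46 mitosis UMIs. All 85 control stromal UMIs of Cenpf (chr1:189640606-189688086) came from it, as did 92.2% of those of Cenpa, 86.1% of Ube2c, 85.2% of Mki67 and 81.6% of Birc5. The richest OTM stromal barcode held 551 mitosis UMIs, 4.66% of its class. Beside its cell cycle genes the control barcode held UMIs of 24 of 32 stromal markers, at 18123 CPM against 105862 CPM in the other control stromal barcodes. Its erythroid, epithelial and endothelial markers came to 1 UMI each, and its B cell, T or NK and granulocyte progenitor markers to 0.
Without the richest barcode of each library, the stromal sum of the mitosis genes was 87.9 CPM (289 control UMIs) against 667 CPM (11267 OTM UMIs), where it had been 357 against 697 CPM. Then 33 of the 43 genes were at least 2-fold higher, where 6.13% of all genes were, and all 24 mitosis genes were among them. The barcode left out was chosen by the same mitosis UMIs and held 76.0% of them in the control but 4.66% in the OTM class. Higher mitosis ratios were thus built into the choice, and these values show only how far the sums rested on 1 barcode. Mki67 then had 9 and 538 UMIs (log2 3.54, 2.60 to 4.68), Birc5 14 and 1019 (3.82, 3.07 to 4.70), Cdk1 6 and 602 (4.29, 3.16 to 5.74) and Top2a 77 and 1349 (1.77, 1.44 to 2.12). Cenpf had 0 and 679 UMIs, which is 44.0-fold higher with the control sum set to the floor of 3 UMIs (lower limit of the log2 ratio 5.16). Replication genes moved less: 8 of 14 passed 2-fold with and without that barcode. Ccnd1 kept its ratio, at -1.18 (-1.33 to -1.02).

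**Figure D2:**
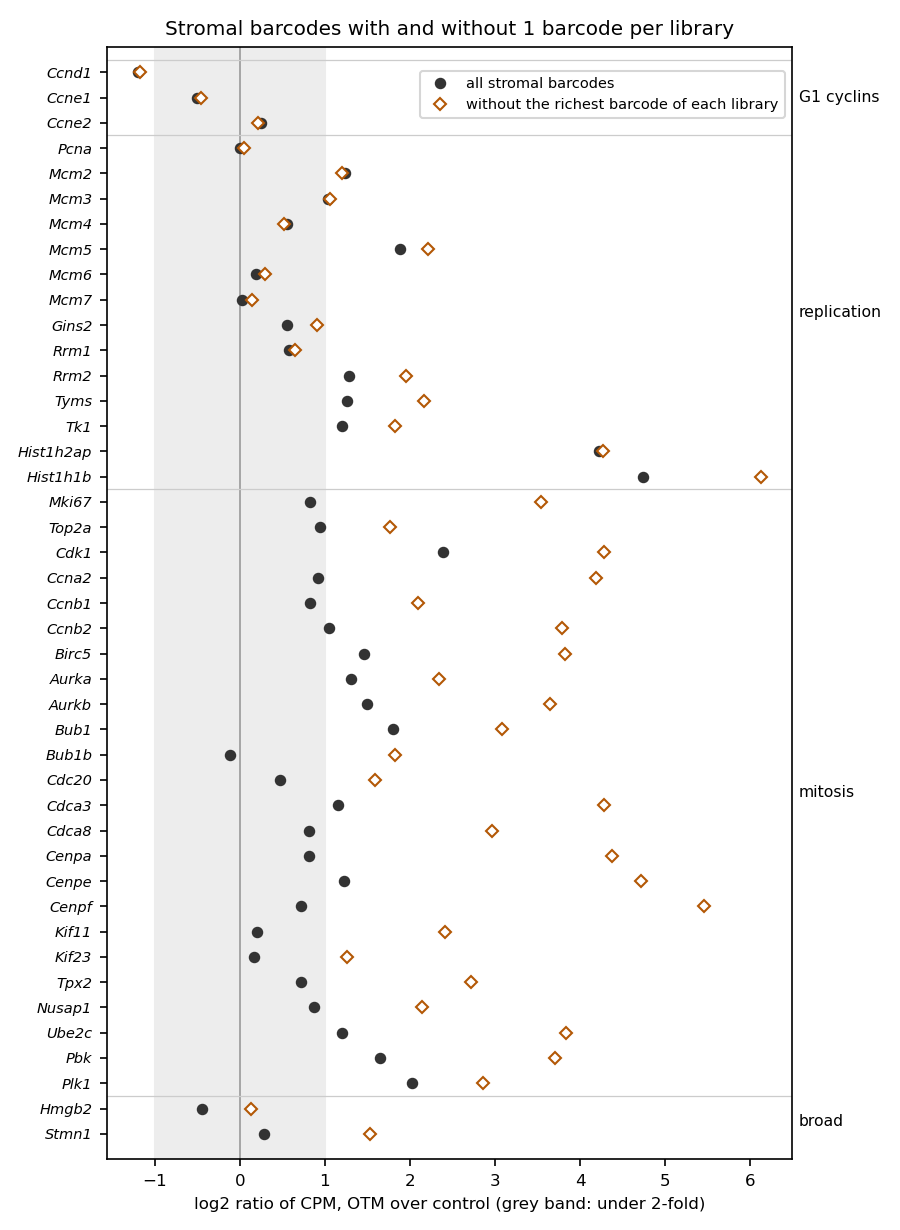
Log2 ratio of CPM, OTM over control, of each gene in stromal-like barcodes, with all barcodes (dots) and without the richest barcode of each library (diamonds). Sums under 3 UMIs are drawn at 3 UMIs. All 24 mitosis diamonds lie at or beyond 1.26, whereas Ccnd1 stays near -1.2. The barcode left out was the one with the most mitosis UMIs, so higher mitosis diamonds were built into the choice.

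The stromal-like class was made of clusters that differed between libraries. Cluster 0 held 92 of the 153 control barcodes and 127 of the 654 OTM barcodes, cluster 7 held 28 and 290, and cluster 14 held 0 and 111. Within cluster 0 the median log2 ratio of the members was 0.03, and 5 of 43 were at least 2-fold higher, where 4.52% of all genes were. Without the richest barcode of each library those values were 1.65 and 26 of 43, where 5.14% of all genes were higher. The control barcode left out was chosen by its mitosis UMIs and held 82.3% of those in cluster 0. Higher mitosis ratios were thus built into the choice, and these values do not show a rise within cluster 0. Counted by barcodes, as described below, 0 of 8 members in cluster 0 were 2-fold higher and 1 was lower, with a median of -0.01. In cluster 7, 29 of 43 were at least 2-fold higher, where 7.12% of all genes were, with a median of 1.73. Top2a had 2 and 620 UMIs there, an interval of 2.51 to 7.42. With control sums of 0 set to 3 UMIs, Birc5 (0 and 459 UMIs) was 10.2-fold and Mki67 (0 and 266) 5.90-fold higher. Members with so few control UMIs entered the count of 29 through their OTM UMIs. Leaving out cluster 14 lowered the stromal count to 11 of 43, where 4.75% of all genes were higher.

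Mononuclear phagocyte-like barcodes, the macrophages, monocytes and dendritic cells, had 37 of 43 members at least 2-fold higher in the OTM library, where 15.5% of all 9240 genes were. The median log2 ratio was 1.94, against 0.24 over all genes. Mitosis genes were near absent from the 36 control barcodes, with 33 UMIs (72.4 CPM) against 1577 (939 CPM) in 87 OTM barcodes. They thus entered the count of 37 mainly through their OTM UMIs, so that count is a description and not support for a rise. Mki67 had 8 and 240 UMIs (3.03, 2.02 to 4.25), and Top2a had 1 and 215. Hist1h1b had 0 and 201 UMIs, Hist1h2ap 0 and 206 and Rrm2 0 and 105. Ccnd1 had 26 and 69 UMIs (-0.47, -1.14 to 0.24).
The class was also made up differently. Clusters i1 and i3 held 17 and 11 of the control barcodes, and clusters i0 and i5 held 36 and 26 of the OTM barcodes. Its own markers came to 49236 CPM among control and 24289 CPM among OTM barcodes. Stromal markers in the class came to 610 CPM (26 of 32 found) and 3624 CPM (all 32 found), and granulocyte progenitor markers to 46.0 CPM (4 of 8) and 151 CPM (all 8). What part these differences had in the ratios was not tested.

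Epithelial-like barcodes had 41 of 43 members at least 2-fold higher in the OTM library, where 6.87% of all 9194 genes were, with a median of 2.55 against -0.13 over all genes. All 24 mitosis and all 14 replication genes were among them. The 20 control barcodes held 16 mitosis UMIs (38.0 CPM), and the 126 OTM barcodes held 7846 (1423 CPM). Mitosis genes thus entered the count of 41 mainly through their OTM UMIs, so that count is a description and not support for a rise. With control sums of 0 set to 3 UMIs, Ube2c (0 and 893 UMIs) was 22.8-fold and Top2a (0 and 662) 16.9-fold higher. Stmn1 had 10 and 1648 UMIs (3.65, 2.77 to 4.72). Ccnd1 again lay below 0, with 64 and 462 UMIs (-0.86, -1.24 to -0.46). The richest of the 126 OTM barcodes held 7.06% of the mitosis UMIs.

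Neutrophil-like barcodes were low in most members. Only 8 members had at least 3 UMIs expected in each library; 4 of these were at least 2-fold higher, where 15% of all genes were, and 1 was lower, as were 4.5% of all genes. The mitosis genes together had 23 control UMIs (60.0 CPM) and 172 OTM UMIs (154 CPM), and 1 OTM barcode held 116 of those 172. The expected UMIs came from both libraries pooled, so members with few control UMIs could enter mainly through their OTM UMIs. The count of 4 is thus a description and not support for a rise. The lower gene was Kif23, a kinesin of the central spindle, with 17 and 21 UMIs (44.3 and 18.8 CPM, log2 -1.24). Hmgb2 stood at 1077 and 972 CPM in neutrophil-like barcodes, above its level in the stromal-like class, although these cells held few UMIs of any other member.

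To count cycling cells at equal depth, each barcode was thinned to 2000 UMIs, which left out 60 control and 53 OTM barcodes. A barcode was called cycling when it held UMIs of at least 2 different mitosis genes or at least 2 different replication genes. By this rule 24 of 288 control barcodes (8.33%, 95% Clopper-Pearson interval 5.41% to 12.1%) and 266 of 1359 OTM barcodes (19.6%, 17.5% to 21.8%) were cycling. The difference was 11.2 points (Newcombe interval 6.90 to 14.9). Over 20 thinning draws it ranged from 7.73 to 12.5 points, with a median of 9.32. Without thinning the shares were 52.0% and 70.8%. At least 2 mitosis genes were found in 14 control barcodes (4.86%, 2.68% to 8.02%) and 174 OTM barcodes (12.8%, 11.1% to 14.7%). The share in neutrophil-like barcodes was 0 of 33 in the control, which allows up to 9.09% by a limit of 3 barcodes (10.6% by Clopper-Pearson), and 3 of 144 in the OTM library (2.08%, 0.43% to 5.97%), at median depths of 11322 and 5412 UMIs. It cannot give the rate of false calls in other classes. Replication genes summed to 36.5 CPM in control neutrophil-like barcodes and to 253 CPM in control stromal-like ones.

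The call was cut from a count per barcode, so barcodes near the cut were counted. In the OTM library 1025 thinned barcodes held no mitosis gene, 160 held 1, 33 held 2, 18 held 3 and 8 held 4. From 5 to 10 genes there were between 12 and 18 barcodes at each number, more than at 4. In the control library 236 held none, 38 held 1, 5 held 2, and 9 barcodes held 3 or more. The share with exactly 1 mitosis gene was thus about equal in the libraries, and the difference lay in barcodes with several.

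**Figure D3:**
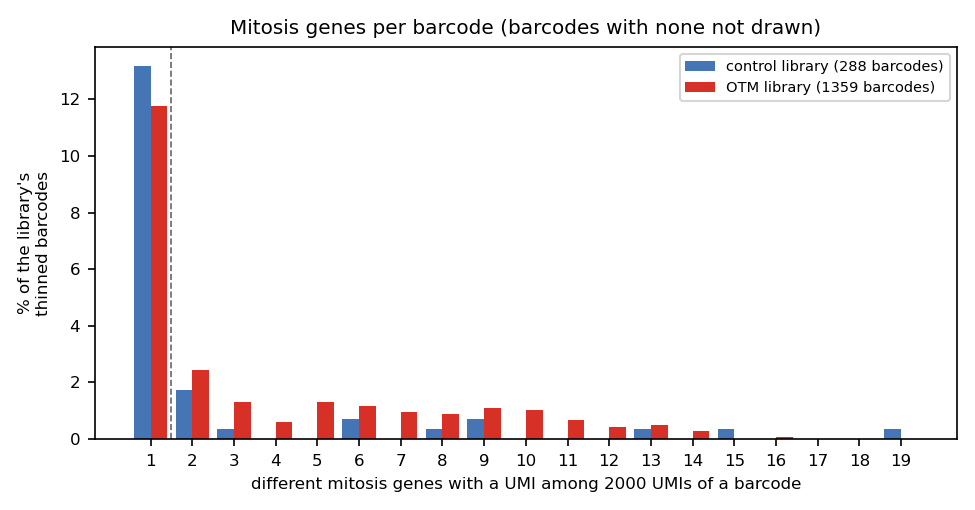
Share of thinned barcodes of each library (y axis, %) by the number of different mitosis genes with a UMI (x axis); barcodes with none are not drawn and the dashed line marks the cut. The bars for 1 gene are of like height, and OTM barcodes extend from 2 to 16 genes, with 1 control barcode at 19.

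Single genes were also counted by barcodes rather than by UMIs. Of 42 members with enough thinned barcodes, 17 were found in an at least 2-fold larger share of OTM barcodes, where 4.89% of all genes were, and none in a 2-fold smaller share, where 4.39% were. Birc5 was found in 6 control (2.08%) and 97 OTM barcodes (7.14%), a difference of 5.05 points (2.32 to 7.05), and Tyms in 3 (1.04%) and 78 (5.74%), 4.70 points (2.40 to 6.30). Mki67 was found in 3.82% and 7.43% (3.61 points, 0.41 to 6.05), Top2a in 4.51% and 7.95% (3.43 points, 0.06 to 6.04). Some members differed between the 2 ways of counting. Ccne1, level by UMIs, was found in 3 control (1.04%) and 40 OTM barcodes (2.94%, a difference of 1.90 points, -0.24 to 3.23). Cdk1 and Cdc20, past 2-fold by UMIs, were not by barcodes, at 2.78% and 4.93% and at 2.43% and 3.75%. Pcna was found in 16.0% and 18.3% (2.35 points, -2.81 to 6.93) and Hmgb2 in 33.7% and 31.7% (-1.97 points, -8.25 to 4.04).
In stromal-like barcodes 11 of 30 members passed 2-fold, where 5.16% of all genes did. Stmn1 was found in 7.33% of control and 17.2% of OTM barcodes (9.83 points, 3.72 to 14.6), Cenpf in 0.67% and 4.68% (4.01 points, 0.67 to 6.05) and Ccnd1 in 16.0% and 9.20% (-6.80 points, -14 to -0.78). Here each barcode counts the same, so the richest control barcode carries no extra weight. However, members were taken by the barcodes of both libraries pooled, and counts under 3 were set to 3. Members near absent from the control, such as Cenpf, thus entered through OTM barcodes. The count of 11 is therefore a description and not support for a rise. The same limit was used over all cells and in the other classes. Elsewhere few members could be counted this way. In phagocyte-like barcodes 1 of 5 passed 2-fold upward (5.88% of all genes), and in epithelial-like barcodes 1 of 3 (3.81%). None did of 2 in neutrophil-like barcodes (3.92%) or of 3 in cluster 7 (2.77%). In cluster 0, of 8 members 0 were higher and 1 lower, where 5.33% and 8.95% of all genes were. Their median log2 ratio was -0.01.

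Cycling barcodes were spread unequally over the classes. In stromal-like barcodes 9 of 150 control (6.00%, 2.78% to 11.1%) and 103 of 641 OTM barcodes (16.1%, 13.3% to 19.1%) were cycling, a difference of 10.1 points (4.28 to 14.5), or 5.18 to 11.7 over the 20 draws. At least 2 mitosis genes were held by 2 (1.33%) and 61 (9.52%), and the other 7 and 42 were called by replication genes only. Cluster 0, which held most control stromal barcodes, had 8 of 92 (8.70%) and 11 of 125 cycling (8.80%), a difference of 0.10 points (-8.75 to 8.14). Cluster 7 had 0 of 26, which allows up to 11.5% by the limit of 3 (13.2% by Clopper-Pearson), and 48 of 280 (17.1%, 12.9% to 22.1%). Over the 20 draws its control share had a median of 3.85%. Its difference ranged from 6.95 to 17.1 points, with a median of 12.4, so the draw given here had the largest. Cluster 14, with no control barcode, had 33 of 111 cycling (29.7%, 21.4% to 39.2%). Cluster 8 was low in both libraries, with 1 of 22 and 2 of 55. The median depth of stromal-like barcodes was 19152 UMIs in the control and 22156 in the OTM library.

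In mononuclear phagocyte-like barcodes 1 of 31 control (3.23%, 0.08% to 16.7%) and 21 of 81 OTM barcodes (25.9%, 16.8% to 36.9%) were cycling, a difference of 22.7 points (6.44 to 34.1). Over the 20 draws the difference ranged from 13.0 to 24.7 points, with a median of 19.5. At least 2 mitosis genes were held by 0 and 16. Of the OTM cycling barcodes, 10 lay in cluster i0 and 10 in cluster i5. Clusters i1 and i3, which held most of the control class, had 1 of 14 and 0 of 10 cycling in the control and 1 of 11 and 0 of 12 in the OTM library. Epithelial-like barcodes had 0 of 19 in the control, which allows up to 15.8% by the limit of 3 (17.6% by Clopper-Pearson), and 47 of 120 in the OTM library (39.2%, 30.4% to 48.5%), 39.2 points apart (19.5 to 48.5). Their median depths were 14008 and 34944 UMIs before thinning. Over the 20 draws the control epithelial-like share ranged from 0% to 10.5%, with a median of 5.26%. The difference ranged from 24.5 to 39.2 points, with a median of 33.9, so the draw given here had the largest difference.

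Among classes with fewer control barcodes, the granulocyte progenitor-like barcodes were cycling in 3 of 4 control and 11 of 14 OTM barcodes. Their most enriched genes included Fcnb, Elane and Ms4a3 and also the granule genes Camp and Ngp. In the 11 OTM ones with mitosis genes, neutrophil markers came to 397545 CPM and granulocyte progenitor markers to 9773 CPM. Neutrophil markers came to 230838 CPM in OTM neutrophil-like barcodes without mitosis genes. Erythroid-like barcodes were cycling in 4 of 12 and 11 of 25, all of them with at least 2 mitosis genes. Endothelial-like barcodes were cycling in 2 of 14 and 40 of 198 (20.2%, 14.8% to 26.5%), but only 19 of the OTM ones held 2 mitosis genes. Over the 20 draws the OTM endothelial-like share ranged from 14.1% to 20.2%, with a median of 16.7%, so the draw given here had the highest share. Of the OTM B cell-like barcodes 9 of 26 were cycling, all in cluster i7 (9 of 17) and none in cluster i4 (0 of 9). Osteoclast-like barcodes, in the OTM library only, were cycling in 5 of 26. The 4 of them with mitosis genes had osteoclast markers at 3250 CPM, against 29386 CPM in the other 22. In the mast or basophil-like cluster, the 5 OTM barcodes with mitosis genes had mast cell markers at 0 and granulocyte progenitor markers at 11200 CPM, so their class name is not borne out by markers. Glial-like barcodes had 0 of 4 and 0 of 15.
By class, the 174 OTM barcodes with at least 2 mitosis genes were 61 stromal-like (35.1%), 32 epithelial-like (18.4%), 19 endothelial-like (10.9%), 16 mononuclear phagocyte-like (9.20%), and 11 each of granulocyte progenitor-like and erythroid-like barcodes. The 14 control ones included 4 erythroid-like, 3 granulocyte progenitor-like and 2 stromal-like barcodes. Blood cell progenitors thus made up more of the few control mitosis barcodes than stromal cells did.

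**Figure D4:**
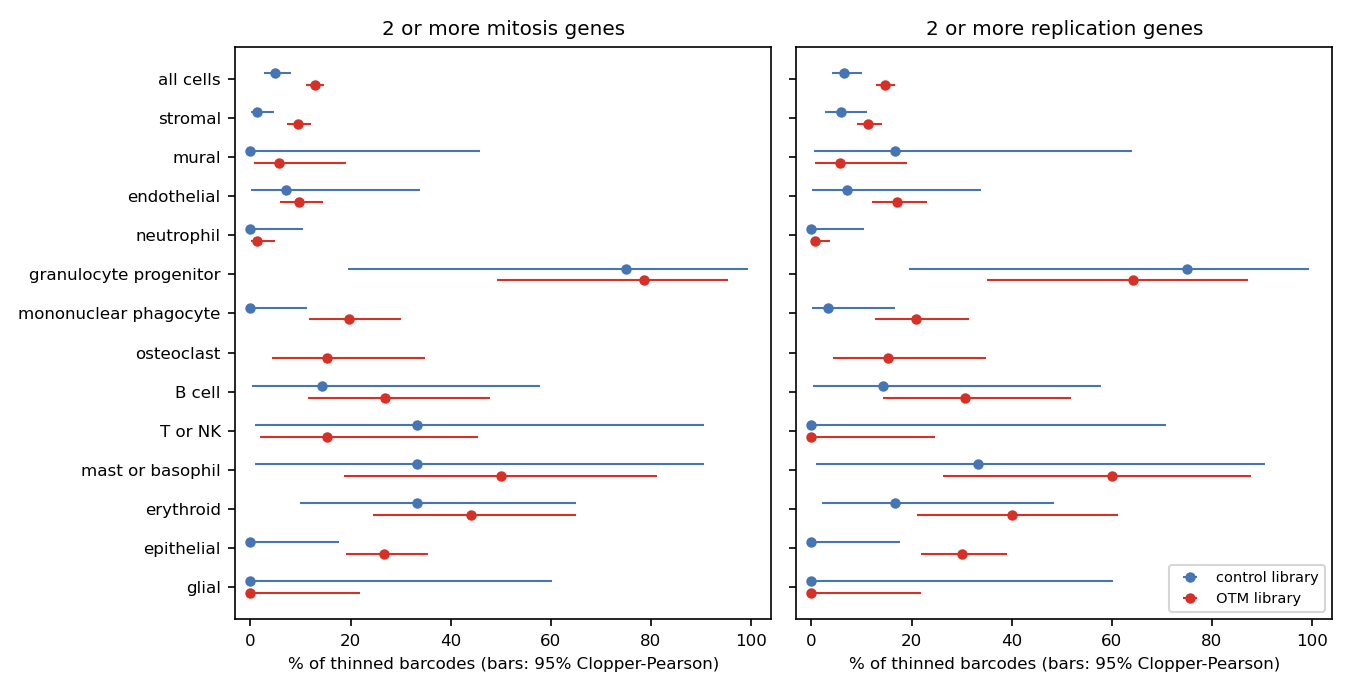
Share of thinned barcodes (x axis, %) with at least 2 mitosis genes (left) or 2 replication genes (right) in each class (y axis), control in blue and OTM in red, with 95% Clopper-Pearson intervals. Granulocyte progenitor-like points are high in both libraries (3 of 4 and 11 of 14 for mitosis), and neutrophil-like points lie near 0.

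Replication and mitosis genes were then set against each other. Mitosis genes made up 60.8% of the replication and mitosis UMIs of the control library (59.5% to 62.2%) and 57.7% of those of the OTM library (57.2% to 58.1%), a difference of -3.18 points (-4.57 to -1.77). Without the richest barcode of each library the shares were 53.7% and 57.4%, and the difference turned to 3.71 points (2.14 to 5.29). That barcode was chosen by its mitosis UMIs, so a lower control share was built into the choice. By class the control values lay far apart. They were 58.5% in stromal-like, 25% in mononuclear phagocyte-like, 23.2% in endothelial-like, 19.0% in epithelial-like and 81.5% in erythroid-like barcodes (2 of these 12 barcodes held 610 and 371 of the 1257 mitosis UMIs). The OTM values were closer together, at 57.7%, 52.9%, 50.2%, 61.3% and 59.3%. In the control phagocyte-like and epithelial-like classes these shares rested on 33 and 16 mitosis UMIs. The stromal-like control share rested on the richest barcode: without that barcode of each library the stromal-like shares were 27.7% in the control and 56.6% in the OTM library.
Of the 266 OTM cycling barcodes, 92 held replication genes only, 66 mitosis genes only and 108 both. In the control library the numbers were 10, 5 and 9 of 24. In endothelial-like OTM barcodes 21 of 40 held replication genes only, and in granulocyte progenitor-like ones 0 of 11. All these counts come from the same thinning draw, which gave the highest endothelial-like OTM share of the 20 draws.

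**Figure D5:**
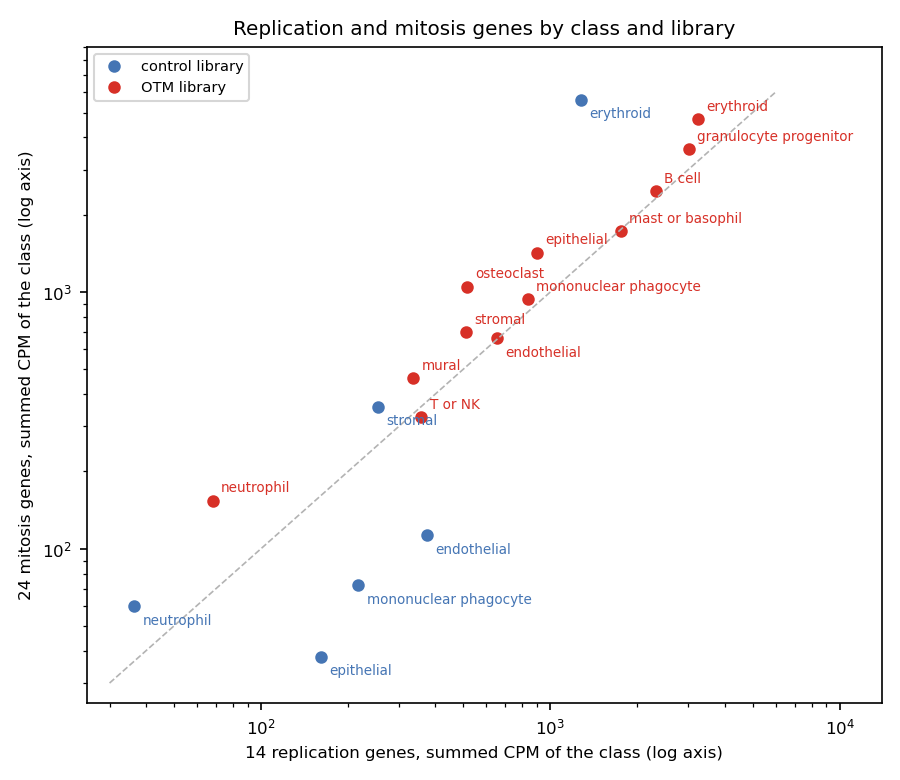
Summed CPM of the 14 replication genes (x, log axis) and the 24 mitosis genes (y, log axis) per class and library, for classes with at least 10 barcodes; the dashed line marks equal sums. Control phagocyte-like, endothelial-like and epithelial-like points lie below the line, and the control erythroid-like point, at 1272 and 5612 CPM, lies above it.

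Within the 174 OTM mitosis barcodes, the S-phase histones were set against 6 genes that peak in G2 and mitosis (Ccnb1, Cdc20, Plk1, Aurka, Cenpe and Cenpf). Relative to the medians, 43 barcodes were high in histones only, 43 in the late genes only, 44 in both and 44 in neither, and 42 had no histone UMI. In stromal-like barcodes 22 of 61 had no histone UMI, 11 were high in histones only and 20 in the late genes only. In the 11 granulocyte progenitor-like barcodes 7 were high in histones only and 2 in the late genes only.

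Within OTM stromal-like barcodes at equal depth, the 61 with at least 2 mitosis genes were set beside the 580 without. These values are a description, since the rule used mitosis genes. Stmn1 was found in 73.8% and 11.2%, Hmgb2 in 73.8% and 14%, Hist1h1b in 31.1% and 0.17% and Rrm2 in 21.3% and 1.55%. Pcna differed less, at 23.0% and 15%, and Ccnd1 was found in 11.5% and 8.97%. Among genes outside the 43, Cks1b and Cks2, subunits of cyclin-dependent kinase complexes, were found in 37.7% and 3.97% and in 52.5% and 14.1%. The kinase inhibitor Cdkn2c (p18) was found in 29.5% and 3.45%. The inhibitors Cdkn1a (p21) and Cdkn1c (p57) went the other way, at 11.5% and 24.7% and at 3.28% and 12.1%, and so did Foxo3, at 3.28% and 19.3%. Other OTM classes did not all share these directions. Cdkn1a was found in 62.5% of the 16 phagocyte-like barcodes with mitosis genes and 30.8% of the 65 without, in 57.9% and 57.0% of endothelial-like and in 15.6% and 31.8% of epithelial-like barcodes. Foxo3 was found in 25% and 13.8% of phagocyte-like and in 12.5% and 7.95% of epithelial-like barcodes.

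Other genes of the cycle were taken from 6 further lists. Of 32 other replication genes, 14 were at least 2-fold higher in the whole OTM library and 0 lower, beside 5.27% and 11.4% of all genes. These 2 shares apply to each list below. Dut, which removes dUTP, had 128 and 3107 UMIs (log2 1.93, 1.68 to 2.20), and the licensing inhibitor Gmnn had 50 and 1040 (1.71, 1.30 to 2.15). Nasp and Slbp, which handle histone proteins and histone transcripts, were the most abundant and had -0.18 (-0.29 to -0.06) and -0.03 (-0.17 to 0.11). Of 50 other mitosis genes 18 were higher and 0 lower, with Hmmr at 1.45 (1.09 to 1.83) and Spc24, of the kinetochore, at 1.43 (1.10 to 1.77). The tubulin Tubb4b, the most abundant, had 0.02 (-0.05 to 0.10).
Of 12 other cyclins, kinases and their regulators none passed 2-fold in either direction. Cdk4 had 0.62 (0.49 to 0.76), and the D cyclins Ccnd2 and Ccnd3 had -0.45 (-0.55 to -0.34) and -0.52 (-0.64 to -0.40). Of 17 genes of the E2F, RB and DREAM families only E2f1 passed, a share close to that of all genes, at 1.30 (0.79 to 1.85), whereas Rb1 had -0.63 (-0.79 to -0.47).
Of 8 kinase inhibitors, Cdkn2b (p15) and Cdkn2a (p16 and ARF) were higher, with 33 and 508 UMIs (1.28, 0.77 to 1.83) and 5 and 188 UMIs (2.57, 1.32 to 4.21). Cdkn1c was lower, with 490 and 1477 (-1.07, -1.22 to -0.92). Cdkn1a, the most abundant, had -0.33 (-0.41 to -0.26). Of 21 genes of p53 response and quiescence none was higher and 2 were lower, Gas6 (-1.66, -1.76 to -1.55) and Txnip (-1.16, -1.27 to -1.06), close to the 11.4% of all genes that were lower.
In stromal-like barcodes the quiescence list had 6 of 21 lower and 1 higher, where 8.2% and 5.53% of all genes were. Gas6 had 939 and 1420 UMIs (-1.74, -1.86 to -1.62) and Klf2 had 1899 and 4055 (-1.24, -1.32 to -1.16). The stromal replication and mitosis lists had 13 of 32 and 19 of 50 higher. Without cluster 14, which held no control barcode, the quiescence list had 3 of 21 lower and 0 higher, where 7.33% and 4.75% of all genes were. The replication and mitosis lists then had 10 of 31 and 13 of 50 higher. Of the 12 other cyclins, kinases and regulators, only Cdk6 passed upward, at 1.03 (0.77 to 1.31), and 1 was lower, at -1.33. These counts lie close to the 5.53% and 8.2% of all genes. Without cluster 14, 0 of the 12 passed upward.

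The genes most like the mitosis members were found by Pearson's r over the 1412 OTM barcodes, between each of 16858 genes (log of counts per 10000) and the summed share of the mitosis genes. The barcodes share a library and differ in depth, and r is a description. Among genes outside the 43 the highest were Hmmr (0.85), Knl1 (0.84), Prc1 (0.83), Dlgap5 (0.81), Anln (0.81), Spc25 (0.80), Sgo2a (0.79), Kif22 (0.79), Aspm (0.78) and Depdc1a (0.78). Of the 50 highest genes, 22 were members, 21 were in the other lists and 7 in neither. Those 22 were all mitosis genes and each was part of the sum, so their high rank was built in. Within the members r ran from 0.89 for Birc5, which is itself part of the sum, to -0.01 for Ccnd1. Hist1h1b had 0.58, Stmn1 0.62 and Pcna 0.16.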

How the data were processed

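UMI counts per gene and barcode were deposited for 1 control and 1 OTM library, without normalization. They came from 10x 3' v3.1 libraries and were made with Cell Ranger 7.0.1 on GRCm38 (mm10), per the submitters' processing notes, which also name Seurat. Any filter on cells before deposit is not given in the sources used here, and the files hold fewer barcodes (369 and 1539) than the recovery targeted in the labels.

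Barcodes with at least 200 genes and at most 20% mitochondrial UMIs were kept (348 and 1412). Scrublet called 2 and 8 doublets, which were kept; so few calls leave doublets largely unassessed. Clustering (scanpy 1.11.5; 2000 variable genes, 30 components, 15 neighbours, Leiden resolution 1) left out all 183 listed cell cycle genes. Immune clusters were clustered again and carry the letter i. Clusters were named from 17 marker lists, with at least 3 markers each found in at least 25% of the cluster's barcodes and a positive score; these limits were set after the data had been seen. Cluster 1 (50 control and 21 OTM barcodes, median 900 UMIs) stayed unnamed. Cluster 0, named stromal-like (score 1.17), scored 1.22 for the chondrocyte list, of which 2 of 6 markers were found in at least 25% of its barcodes.

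Counts were summed per library and class. Intervals were exact Poisson for a sum, exact conditional binomial for a ratio, Clopper-Pearson for a share and Newcombe for a difference of shares. UMIs of 1 gene sit together in few barcodes, so intervals of sums and ratios are too narrow, and the share of the richest barcodes is given beside them. Sums under 3 UMIs were set to 3 in ratios and list medians. A gene entered the counts past 2-fold where its pooled level would give each library 3 UMIs or more, so a gene with UMIs in 1 library only could enter. No p-value was computed. Ratios, calls past 2-fold and ratio intervals were tested on simulated library sums with independent counts, and thinning on simulated barcodes. Clustering, class names, cycling calls and UMIs gathered in few barcodes were not simulated.

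In each role the genes with the most UMIs over both libraries were named (up to 3, 8, 12 and 2), with any member over 2-fold lower, and from each other list up to 4 of the most abundant and 4 past 2-fold. Mcm5, Kif11, the late genes and genes compared inside and outside the cycle were chosen after their values were seen. The members and lists were chosen with earlier results of these data known. Promoters came from RefSeq on GRCm38.p6, and gene positions from GENCODE on GRCm38.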

Additional observations from a re-analysis of the deposited data

How the results depend on the processing

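Each of 6 values was recomputed under 66 alternatives: 52 moved it by less than its counting interval, or a count by less than 1.5 times, 13 moved it further and 1 reversed it. Leaving out 1 barcode or 1 cluster and repeating the thinning were chosen after the data had been seen. The difference in cycling barcodes over all cells was 18.7 points without thinning; its 10 other alternatives and all 15 of the stromal one lay within the interval, although at 5000 UMIs the stromal difference was 4.88 points (-3.90 to 12.9). The endothelial OTM share (20.2%) was 82.8% without thinning, 11.4% at 1000 UMIs, 35.1% at 5000 UMIs, 56.6% with at least 1 gene, 9.60% with at least 3 genes and 9.60% with mitosis genes only. Its median over 20 thinning draws was 16.7%. The count of members at least 2-fold higher went from 13 to 28 in all cells without the richest barcode of each library, which was chosen by its mitosis UMIs. In stromal-like barcodes it went from 19 to 33 without that barcode, to 34 with each library clustered alone, to 34 with classes from each barcode's own marker score and to 11 without cluster 14. The difference in the mitosis share went from -3.18 to -0.67 points without the histones and to 3.71 points without the richest barcode of each library. The cause of the moves under other clusterings was not tested. The control library, with 348 barcodes, limits all comparisons, and control classes under 20 barcodes allow none. No paired analysis was possible because each group has 1 library and the labels carry no replicate numbers.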
